A study of Mus musculus with 26 samples.

Results

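The comparison described here is the response of mouse intestinal organoids to prostaglandin E2 (PGE2) on day 3 against the response on day 1, taken across all expressed genes. It used 12 of the 26 libraries of the series, the 3 vehicle and 3 PGE2 libraries of each of those days, and 14648 genes with enough reads to test. Organoids are hollow epithelial structures grown from crypts, the stem cell pockets of the intestinal lining, and these came from C57BL/6 mice with no genetic change named. All groups shared a Matrigel support and a medium with B27, N2, N-acetylcysteine, the growth factors EGF, R-spondin and Noggin, the GSK3 inhibitor CHIR-99021 and the ROCK inhibitor Y-27632, per the labels' protocols. Treated cultures received 50 nM PGE2 and controls received vehicle. The protocol names PGE2 and the series' design text a dimethyl analogue of it, and the sources used here do not say which of them the cultures received. The labels do not say whether the replicates were separate cultures or mice, so p-values measure the spread between these libraries, which may be technical.

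PGE2 is a lipid made from arachidonic acid by the cyclooxygenases, and it acts on 4 receptors, EP1 to EP4. EP2 and EP4 raise cyclic AMP, which activates protein kinase A and the transcription factor CREB, and EP4 is the receptor best known in intestinal epithelium. In the gut PGE2 is known for its part in wound repair, mucus and fluid secretion, and for a fetal-like repair state in which Lgr5+ stem cell genes give way to genes of the YAP pathway.

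The 12 libraries held 10143571 to 14615719 counts each, of which mitochondrial ribosomal RNA took 6.74% to 10.3% and the ribosomal-RNA-like loci Gm26917 and Gm42418 took 5.43% to 12.1%. The first principal component held 57.8% of the variance and placed the PGE2 libraries apart from the vehicle libraries, and the second held 19.7% and placed the days apart. Replicate 2 stood apart from the other replicates of its group in both day 3 groups. The chi-square of counts per degree of freedom was 11.2 and 17.3 for the pairs with vehicle replicate 2 and 4.04 for the other vehicle pair, and 13.4 and 9.22 for the pairs with PGE2 replicate 2 and 2.16 for the other PGE2 pair. It was 1.98 to 6.99 within the day 1 groups. Epithelial genes were abundant in every library, with Epcam at 516 to 657 CPM (counts scaled to a common library total) and the enterocyte brush border gene Vil1 at 439 to 781 CPM. Markers of other cells were near 0. Col1a1 did not exceed 0.372 CPM, Dcn 0.0720 CPM, Ptprc 0.229 CPM and Pecam1 0.742 CPM. The 15 fibroblast and smooth muscle markers summed to 87.7 to 88.7 CPM in vehicle and 50.1 to 53.2 CPM in PGE2 libraries at day 1, and to 96.2 to 104 and 75.1 to 80.2 CPM at day 3. Most of that sum was Fbln1, at 46.9 to 96.4 CPM. The 16 immune markers summed to 2.64 to 3.05 and 4.89 to 6.00 CPM at day 1 and to 3.34 to 4.08 and 7.32 to 10.5 CPM at day 3, with Gzmb, Nkg7 and Tyrobp at 0 counts in all 12 libraries.

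At day 1, 8296 genes (56.6% of those tested) differed between PGE2 and vehicle at an adjusted p under 0.05, 4008 higher (27.4%) and 4288 lower (29.3%). Day 3 gave 8699 (59.4%), 4276 higher (29.2%) and 4423 lower (30.2%). All calls are from edgeR's quasi-likelihood test with Benjamini-Hochberg adjustment over all genes tested, and the same test of the difference between the 2 responses called 3630 genes (24.8%). In 1901 (13.0%) the response was more positive at day 3 and in 1729 (11.8%) more negative, and 663 of them differed by at least 2-fold. The 2 responses correlated at r = 0.77 across genes, which share the same libraries and are not independent replicates. The median difference over all genes was -0.02 on the log2 scale. The split between directions moved with the processing: 52.4% of the calls were more positive at day 3, against 63.5% when libraries were scaled by total counts alone and 42.4% without vehicle day 3 replicate 2. Without that library 1730 genes were more positive and 2354 more negative, and without PGE2 day 3 replicate 2 the counts were 1709 and 1472. Leaving out either of them kept each class described below within 1.5 times its count, though not every gene kept its class.

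**Figure D1:**
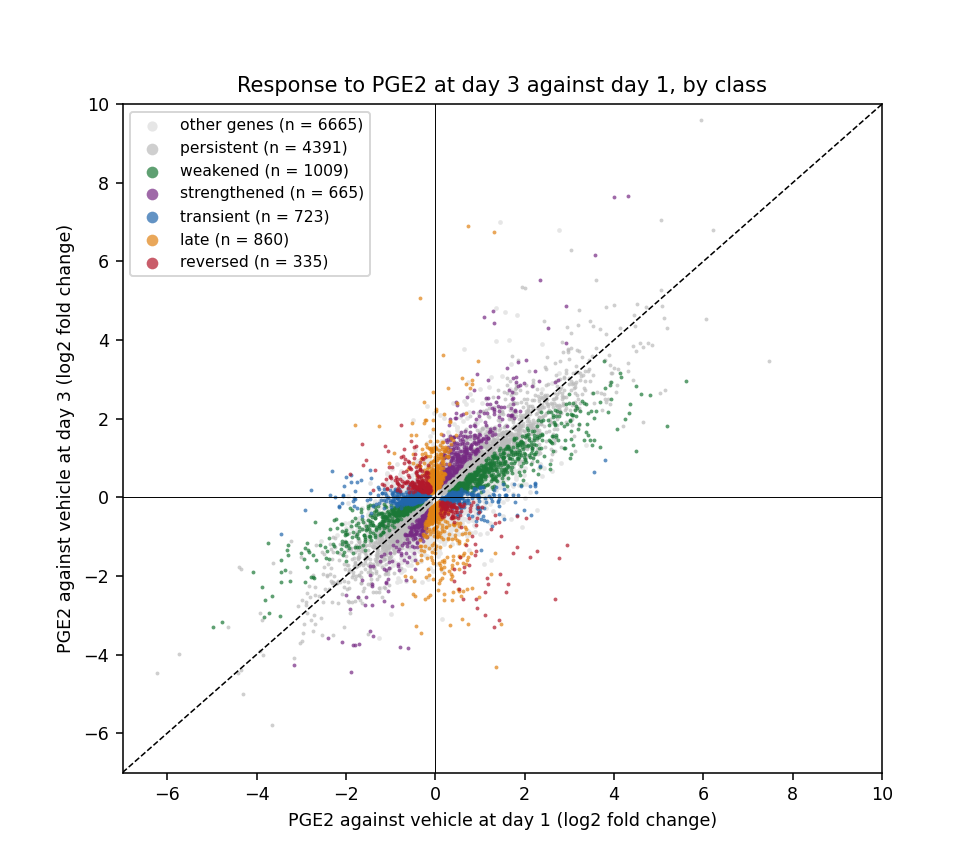
Log2 fold change of PGE2 against vehicle at day 1 (x axis) and at day 3 (y axis) for each of the 14648 genes tested, coloured by class of response, with the dashed line marking equal responses. Persistent genes (n = 4391) lie along the line, weakened genes (n = 1009) between the line and the x axis, and strengthened genes (n = 665) between the line and the y axis.

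Persistent responses were the most numerous class. A gene was counted as persistent when it was called on both days in 1 direction and the difference between the days was not called. This held for 4391 genes (30% of those tested), 2081 higher and 2310 lower with PGE2. A missed threshold does not show an equal response, and for 3159 of the 4391 the 95% interval of the difference lay within 1.5-fold in either direction. Of the persistent genes, 970 responded by at least 2-fold on both days.

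Mesothelin (Msln), a surface protein of the fetal-like epithelium, stood at 88.5, 85.6 and 92.6 CPM in the vehicle libraries of day 1 and at 923, 880 and 912 CPM with PGE2. At day 3 it stood at 103, 105 and 112 CPM in vehicle and at 974, 996 and 1019 CPM with PGE2. Every PGE2 library was above every vehicle library on both days. The log2 response was 3.35 ± 0.05 (SE, n = 3 libraries per group, as for every response below) at day 1 and 3.22 ± 0.05 at day 3, a difference of -0.13 with a 95% interval of -0.26 to 0.01 (edgeR adjusted p = 0.19). The difference was called without vehicle day 3 replicate 2. The alarmin Il33, a nuclear cytokine released from damaged epithelium, went from 2.15 to 3.83 CPM in vehicle to 99.0 to 103 CPM with PGE2 at day 1, and from 2.40 to 3.57 CPM to 90.6 to 93.9 CPM at day 3. Its 2 responses, 5.08 ± 0.10 and 4.86 ± 0.10, differed by -0.23 (interval -0.63 to 0.18). Fst, the secreted activin antagonist follistatin, responded by 5.12 ± 0.17 and 4.57 ± 0.20, and its difference of -0.55 had a wide interval, -1.39 to 0.28.

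Several stem cell genes kept their fall with PGE2 while their levels rose between the days in both groups. In bulk libraries fewer cells of a type and less RNA per cell cannot be told apart, here and for the cell type genes below. Olfm4, a glycoprotein of crypt base columnar stem cells, was at 82.5, 85.4 and 95.9 CPM in vehicle at day 1 and at 6.19, 4.92 and 6.96 CPM with PGE2. By day 3 it was at 1103, 1015 and 1192 CPM in vehicle and at 77.8, 68.8 and 58.6 CPM with PGE2. The day 3 PGE2 libraries thus lay close to the vehicle libraries of day 1, and 58.6 to 77.8 CPM did not overlap 82.5 to 95.9 CPM. Olfm4 rose between the days by 3.65 ± 0.10 in vehicle and by 3.48 ± 0.15 with PGE2, and its responses of -3.85 ± 0.15 and -4.02 ± 0.10 differed by -0.17 (interval -0.63 to 0.29). Lgr5, the R-spondin receptor that marks these stem cells, was at 26.2 to 27.4 CPM in vehicle and 3.35 to 4.59 CPM with PGE2 at day 1, and at 122 to 148 and 12.9 to 18.3 CPM at day 3. It responded by -2.78 ± 0.16 and -3.11 ± 0.10. Axin2, a negative feedback gene of the Wnt pathway, responded by -1.31 ± 0.04 on each day, and its interval of -0.12 to 0.13 was among the bounded ones. The fatty acid desaturase Fads1 responded by -2.38 ± 0.06 and -2.33 ± 0.06 (difference 0.05, bounded).

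Of the 23 stem cell markers tested, the difference was called higher for 5 and lower for 8, and 9 were persistent. They were lower with PGE2 in 19 of 23 on each day. Igfbp4, a secreted binding protein of insulin-like growth factors, stood out: at day 1 it was at 15.8, 15.2 and 18.3 CPM in vehicle and 10.7, 11.1 and 10.3 CPM with PGE2, and at day 3 at 47.6, 34.9 and 44.1 CPM against 2.97, 2.54 and 3.33 CPM. Vehicle rose by 1.37 ± 0.10 and PGE2 fell by 1.85 on the log2 scale (SE 0.17), so that the response went from -0.62 ± 0.12 to -3.84 ± 0.13 (difference -3.22, adjusted p = 1.5e-11). Nrn1, which encodes the neuritin membrane protein, did likewise (-1.83 ± 0.16 to -3.76 ± 0.16). The call for Ascl2, a stem cell transcription factor, was lost in 10 of the 20 alternatives run.

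Transient responses, called at day 1, not called at day 3 and with the difference called, numbered 723 (4.94%), 284 rises and 439 falls. Their median absolute log2 response was 0.44 at day 1 and 0.08 at day 3, and 100 of them responded by at least 2-fold at day 1. Filamin A (Flna), an actin crosslinker, showed how such a response ended. It was at 235, 246 and 240 CPM in vehicle and 740, 704 and 705 CPM with PGE2 at day 1, then at 361, 349 and 394 CPM in vehicle and 386, 373 and 390 CPM with PGE2 at day 3. The groups were far apart at day 1 and overlapped at day 3. Vehicle rose by 0.62 ± 0.05 and PGE2 fell by 0.90 (SE 0.05), and the response went from 1.58 ± 0.05 to 0.06 ± 0.05 (difference adjusted p = 1.2e-14).

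The keratin Krt80 followed the same course, with 4.54 to 5.58 CPM in vehicle and 22.8 to 26.2 CPM with PGE2 at day 1, and 8.46 to 8.93 and 9.23 to 9.79 CPM at day 3. Its response was 2.25 ± 0.10 and then 0.14 ± 0.11. In Ccn1, a matricellular protein and a target of YAP, the vehicle change was not called. Ccn1 was at 13.8, 12.03 and 13.5 CPM in vehicle and 37.2, 38.5 and 40.6 CPM with PGE2 at day 1, and at 14.2, 13.4 and 15.04 against 15.1, 14.6 and 14.4 CPM at day 3. Hexokinase 2 (Hk2), which commits glucose to glycolysis, lost its response the other way: PGE2 libraries stayed at 131 to 135 and 120 to 134 CPM, a change of -0.09 ± 0.06 that was not called, while vehicle rose from 77.3 to 82.9 CPM to 124 to 145 CPM.

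Transient falls included enterocyte and detoxification enzymes. Ugt2a3, a glucuronosyltransferase, was at 27.8, 26.3 and 25.6 CPM in vehicle and at 5.89, 4.71 and 6.04 CPM with PGE2 at day 1. At day 3 it was at 23.6, 24.4 and 25.7 CPM in vehicle and 23.7, 24.7 and 25.98 CPM with PGE2, so the 2 groups covered nearly the same range. The response went from -2.24 ± 0.10 to 0.02 ± 0.07, and the change came in the PGE2 libraries (2.15 ± 0.10) and was not called in vehicle (-0.12 ± 0.07). Mep1a, a brush border metalloprotease, responded by -2.15 ± 0.16 and then by -0.25 ± 0.12 (day 3 adjusted p = 0.074).

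**Figure D2:**
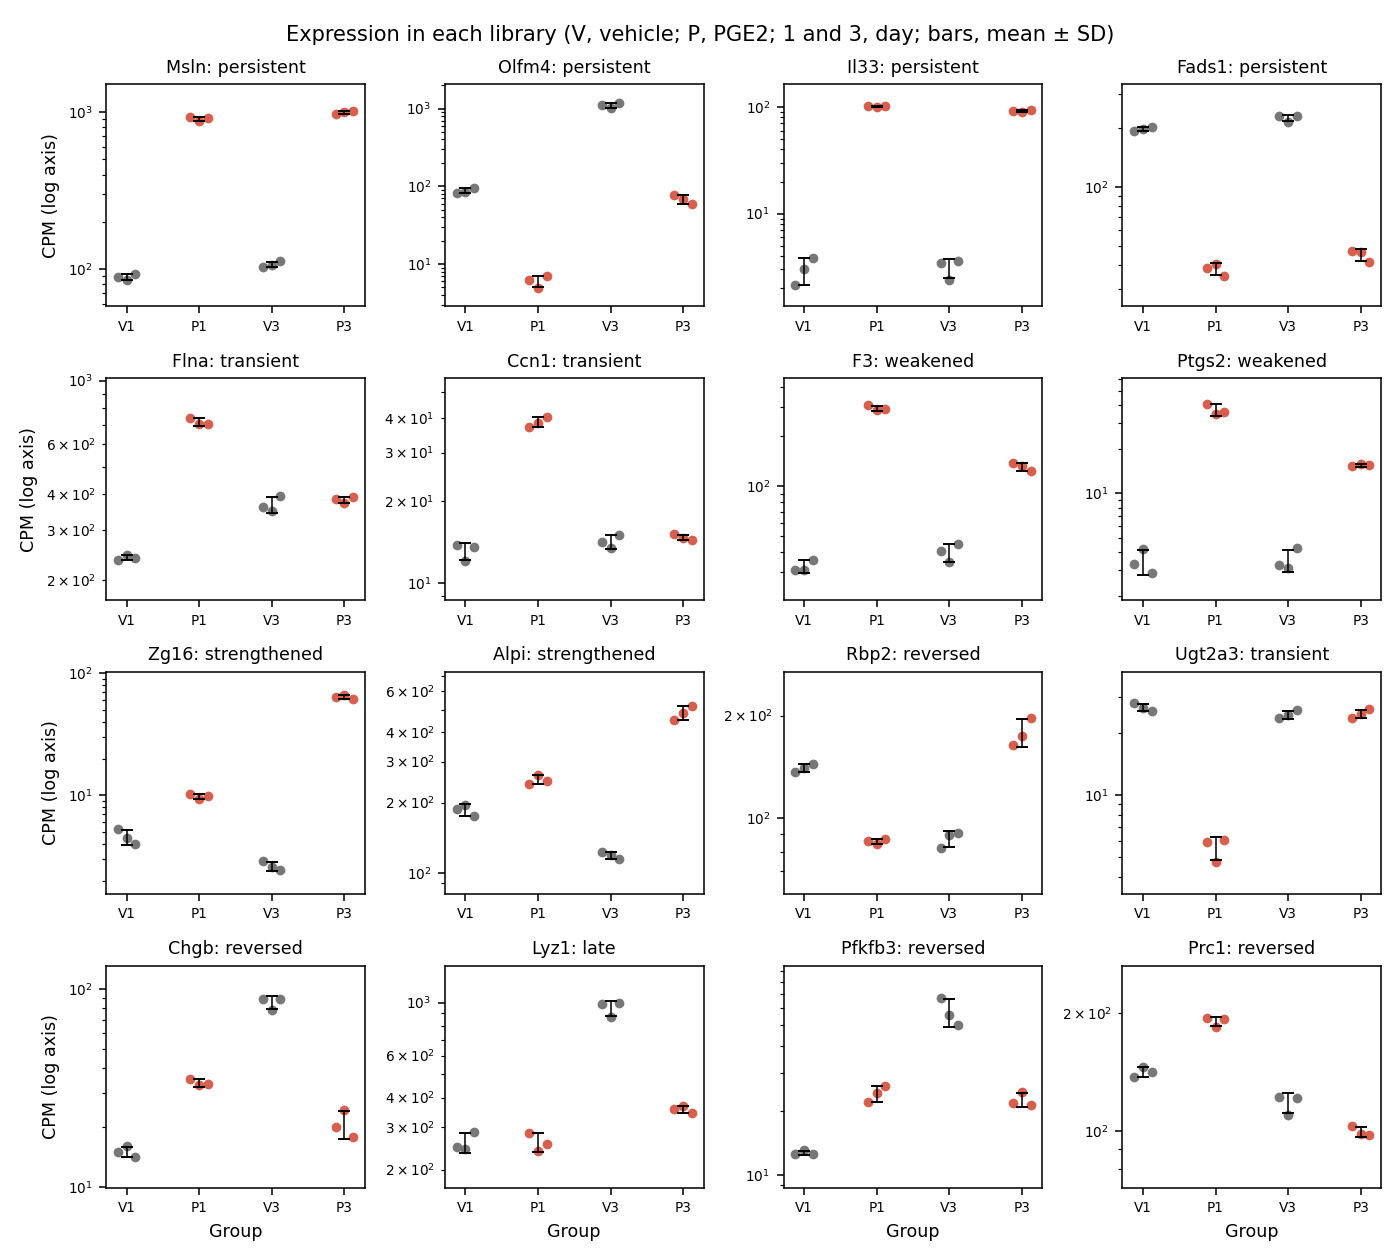
CPM on a log axis in each of the 12 libraries for 16 genes, grouped as vehicle (V) and PGE2 (P) at days 1 and 3, with black bars for the mean ± SD of 3 libraries. Flna and Ccn1 separate at day 1 and meet at day 3, Olfm4 keeps its distance while both groups climb, and Chgb crosses over between the days.

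Weakened responses, called on both days in 1 direction and smaller at day 3, numbered 1009 (6.89%), 586 rises and 423 falls. The median absolute log2 response was 1.09 at day 1 and 0.55 at day 3. Ptgs2, Areg and several immediate early genes were in this class. Ptgs2, the inducible cyclooxygenase that makes the precursor of PGE2, was at 3.29, 4.16 and 2.90 CPM in vehicle and 40.8, 34.5 and 35.5 CPM with PGE2 at day 1, and at 3.25, 3.11 and 4.23 against 15.3, 16.0 and 15.5 CPM at day 3. Vehicle stayed in place (0.02 ± 0.18, not called) and PGE2 fell by 1.25 (SE 0.09), so that the response went from 3.42 ± 0.12 to 2.15 ± 0.13. Areg, the EGF receptor ligand amphiregulin, was at 51.7 to 55.8 CPM in vehicle and 235 to 241 CPM with PGE2 at day 1, and at 43.3 to 55.1 and 127 to 129 CPM at day 3 (2.14 ± 0.06 and 1.33 ± 0.06). Both genes kept every PGE2 library above every vehicle library on both days.

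Dusp1, a phosphatase that ends MAP kinase signals, responded by 3.93 ± 0.12 and 2.51 ± 0.12, and the nuclear receptor Nr4a1, a CREB target, by 2.60 ± 0.09 and 1.55 ± 0.10. Klf6 (2.19 ± 0.06 and 1.00 ± 0.06) and the small Maf protein Maff (1.93 ± 0.11 and 0.30 ± 0.11) are transcription factors of the same immediate early kind. In all 4 the vehicle level rose between the days while the PGE2 level fell. For Maff the vehicle libraries rose from 4.46 to 5.24 CPM to 8.26 to 10.3 CPM and the PGE2 libraries fell from 17.7 to 20.7 CPM to 11.2 to 12.5 CPM. Errfi1, a feedback inhibitor of the EGF receptor, went from a response of 1.26 ± 0.05 to 0.78 ± 0.05.

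CREB binds the cyclic AMP response element TGACGTCA, which reads the same on both strands. TGANTCA, counted here with N as any base, is a loose form of the site of AP-1, the Fos and Jun factor. The element lay within the 250 bases before the start site of the RefSeq gene model (build GRCm38.p6) in the genes below. They are examples from the genes described here. The list may not be complete, so a described gene missing from it may still hold the element. Each is shown with the element in capitals and up to 30 bases on each side, 5′ to 3′ on the gene's strand.
Areg (chr5:91139508-91139575, + strand): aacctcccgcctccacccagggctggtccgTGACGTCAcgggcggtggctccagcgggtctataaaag
Dusp1 (chr17:26508578-26508645, - strand): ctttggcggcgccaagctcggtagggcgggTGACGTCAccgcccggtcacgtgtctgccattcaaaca
Maff (chr15:79347461-79347519, + strand): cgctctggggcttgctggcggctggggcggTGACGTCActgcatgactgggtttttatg
Errfi1 (chr4:150854989-150855056, + strand): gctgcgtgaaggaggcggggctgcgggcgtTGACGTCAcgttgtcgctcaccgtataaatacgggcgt
Mucl3 (chr17:35643705-35643772, - strand): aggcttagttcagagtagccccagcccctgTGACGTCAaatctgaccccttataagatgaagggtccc
Chgb (chr2:132781540-132781607, + strand): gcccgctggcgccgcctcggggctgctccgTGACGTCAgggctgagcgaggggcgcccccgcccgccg

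The element began 61 bases before the start site in Areg, 143 in Dusp1, 29 in Maff, 51 in Errfi1, 47 in Mucl3 and 72 in Chgb. None of the printed windows holds TGANTCA on either strand. The 6 genes did not share a class: Areg, Dusp1, Maff and Errfi1 weakened, Mucl3 persisted and Chgb reversed. Of the 27025 genes in the promoter table, 1.77% held TGACGTCA and 7.82% held TGANTCA. Among the 10097 tested genes matched by symbol the shares were 3.08% and 5.72%. Over the rises and the falls of the 6 classes, taken by the direction at day 1 for reversed genes, TGACGTCA stood in 0.857% (weakened falls, 350 matched) to 7.0% (reversed rises, 100 matched). Between these lay transient rises at 6.37% of 204, late falls at 3.97%, persistent rises at 2.70%, weakened rises at 2.25%, strengthened rises at 2.15% and late rises at 1.86%. TGANTCA stood in 3.03% (strengthened falls) to 10.8% (reversed falls), with weakened rises at 9.91%. These shares were not tested against each other, and the share for reversed rises rests on 7 genes. A match is a description of these letters and not a measured binding site.

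Weakening ran through the YAP and repair genes. F3, tissue factor, which starts blood clotting, was at 30.9, 30.9 and 35.8 CPM in vehicle and 309, 288 and 295 CPM with PGE2 at day 1, and at 40.1, 34.4 and 44.5 against 138, 132 and 123 CPM at day 3. Its response went from 3.19 ± 0.07 to 1.73 ± 0.07, with vehicle up by 0.29 ± 0.08 and PGE2 down (-1.18 ± 0.06). Tgm1, a transglutaminase of the cornified envelope, went from 4.49 ± 0.08 to 2.84 ± 0.08. The stratified epithelium and cornified envelope list, which also holds Krt80, was mixed. Of its 21 genes tested, 9 had a lower response at day 3 and 5 a higher one (1 to 4 higher without 1 library). By class 8 weakened, 7 persisted, 1 was transient, 3 strengthened and 2 were late. Ly6a (Sca-1), a marker of repairing epithelium, was at 53.5 to 58.5 CPM in vehicle and 228 to 241 CPM with PGE2 at day 1 and at 83.1 to 101 and 197 to 202 CPM at day 3. Its response was 2.09 ± 0.06 and then 1.08 ± 0.06. The larger part of that difference came from vehicle, which rose by 0.77 ± 0.06 while PGE2 fell by 0.24 (SE 0.05). Clu, the secreted chaperone clusterin, rose in both groups, faster in vehicle (0.80 ± 0.08 against 0.38 ± 0.07), and its call was lost without vehicle day 1 replicate 2. Ankrd1, a YAP target of the cytoskeleton, had 3 reads in all in the vehicle libraries of day 1 against 108 with PGE2, a ratio of 39.2 with an exact counting interval of 13.1 to 193. At day 3 it had 39 and 156 reads, a log2 response of 1.80 ± 0.23. Ankrd1 changed in vehicle (3.68 ± 0.49), and its change with PGE2 was not called (0.29 ± 0.20).

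Falls that eased by day 3 included those of Dmbt1, Pigr, Fabp1 and Neurog3. Dmbt1, a mucosal scavenger protein, was at 289, 289 and 297 CPM in vehicle and 21.6, 21.9 and 22.0 CPM with PGE2 at day 1, and at 304, 334 and 320 against 142, 138 and 150 CPM at day 3. PGE2 libraries rose by 2.72 ± 0.06 and vehicle by 0.13 ± 0.04, and the response went from -3.74 ± 0.06 to -1.15 ± 0.04. Pigr, the receptor that carries IgA across the epithelium, went from -3.00 ± 0.05 to -1.41 ± 0.05, and Fabp1, a fatty acid binding protein of enterocytes, from -1.90 ± 0.08 to -0.27 ± 0.06. Neurog3, the transcription factor that starts enteroendocrine differentiation, stood at 15.9, 16.3 and 20.7 CPM in vehicle and 2.37, 3.45 and 1.59 CPM with PGE2 at day 1, and at 14.8, 12.9 and 17.8 against 7.92, 7.11 and 5.44 CPM at day 3. Its response went from -2.87 ± 0.21 to -1.16 ± 0.17, with the change in the PGE2 libraries (1.49 ± 0.25).

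Strengthened responses, called on both days in 1 direction and larger at day 3, numbered 665 (4.54%), 412 rises and 253 falls, with median absolute log2 responses of 0.42 and 0.93. Zg16, a lectin of goblet cell granules, was at 5.30, 4.47 and 3.99 CPM in vehicle and 10.3, 9.42 and 9.81 CPM with PGE2 at day 1. At day 3 it was at 2.89, 2.58 and 2.44 CPM in vehicle and 64.2, 66.2 and 61.3 CPM with PGE2. Zg16 fell in vehicle while it rose with PGE2 (-0.79 ± 0.16 and 2.69 ± 0.08), and the response grew from 1.10 ± 0.12 to 4.58 ± 0.10 (difference adjusted p = 2.1e-13). Agr2, a disulfide isomerase that folds mucins, rose in both groups, and its response grew from 0.26 ± 0.06 to 1.40 ± 0.05. Fcgbp, a mucus gel protein, was at 445 to 500 CPM in vehicle and 532 to 553 CPM with PGE2 at day 1 and at 739 to 782 and 1514 to 1524 CPM at day 3.

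The gastric genes of this class were near 0 in vehicle. Gkn1, the stomach mucosal protein gastrokine 1, had 7 vehicle and 128 PGE2 reads at day 1, a ratio of 19.9 (9.39 to 50.5), and 3 and 766 reads at day 3, a ratio of 221 (75.2 to 1070). Its call was lost without vehicle day 1 replicate 1 or 3. Tff1, a trefoil peptide of gastric mucus, was at 0.231 to 0.704 CPM in vehicle and 5.12 to 6.12 CPM with PGE2 at day 1, and at 0.217 to 0.752 and 31.4 to 33.5 CPM at day 3. Gkn2 had no vehicle reads on either day. With a floor of 3 reads over the vehicle group, it was at least 7.63-fold higher with PGE2 at day 1 and at least 89.5-fold higher at day 3, and the model gave no usable difference for it. Mucl3, a mucin-like protein, was persistent by its calls, at 43.1 to 44.0 CPM with PGE2 at day 1 and 73.0 to 81.5 CPM at day 3 over vehicle levels of 0.178 to 1.01 CPM.

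The strengthened rises of Tek and Mcpt2 lay outside the lists. Tek, the angiopoietin receptor, stood at 8.89 to 9.71 CPM in the PGE2 libraries of day 1 and at 33.0 to 37.3 CPM in those of day 3, over vehicle levels of 0.385 to 0.861 and 0.0940 to 0.217 CPM. Its model response was 4.00 ± 0.20 and 7.63 ± 0.20, and 6 vehicle reads in all stood behind the second. The mast cell protease Mcpt2 went from 2.35 ± 0.28 to 5.53 ± 0.34, with 20 vehicle reads at day 1 and 4 at day 3. Among enterocyte genes, Alpi, the intestinal alkaline phosphatase, was at 188, 195 and 175 CPM in vehicle and 241, 264 and 248 CPM with PGE2 at day 1. It moved to 122, 120 and 114 CPM in vehicle and 450, 486 and 517 CPM with PGE2 at day 3. The response grew from 0.43 ± 0.05 to 2.03 ± 0.06. Isx, an intestinal homeobox factor, went from 1.18 ± 0.35 to 2.99 ± 0.23.

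Late responses, not called at day 1 and called at day 3 with the difference called, numbered 860 (5.87%), 408 rises and 452 falls. Their median absolute log2 response was 0.09 at day 1 and 0.47 at day 3, and 184 responded by at least 2-fold at day 3. A further 2612 genes (17.8%) had a response called on 1 day with no called difference, and count as neither transient nor late. Another 38 (0.259%) had a called difference and met none of the classes described here. Late rises included the trefoil peptide Tff3, a goblet cell product, at 144, 147 and 170 CPM in vehicle and 179, 158 and 167 CPM with PGE2 at day 1. The 2 groups overlapped there and were apart at day 3, with 177, 163 and 170 against 365, 375 and 364 CPM. Its response went from 0.13 ± 0.06 to 1.11 ± 0.06. The sulfotransferase Sult6b2 (0.01 ± 0.10 to 2.26 ± 0.09), the dicarboxylate transporter Slc13a2 (0.32 ± 0.14 to 1.92 ± 0.10), the lectin-like Reg1 (-0.24 ± 0.31 to 1.98 ± 0.17) and the coagulation protein Proz (-0.25 ± 0.37 to 2.41 ± 0.28) did likewise, the last from levels under 1.3 CPM outside the PGE2 libraries of day 3.

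The late fall of Lyz1, the lysozyme of Paneth cells, was one in which both groups rose and vehicle rose further. Lyz1 was at 248, 243 and 288 CPM in vehicle and 285, 240 and 255 CPM with PGE2 at day 1, and at 987, 870 and 991 against 360, 368 and 344 CPM at day 3. The rise was 1.87 ± 0.07 in vehicle and 0.46 ± 0.07 with PGE2, and the response went from 0.00 ± 0.07 to -1.41 ± 0.07. The incretin Gip and the muscarinic receptor Chrm3 also rose in vehicle (1.38 ± 0.19 and 1.72 ± 0.20) with no call for the PGE2 change. The proliferation genes fell in both groups. Mki67, the antigen Ki-67 of cycling cells, was at 870 to 968 CPM in vehicle and 859 to 881 CPM with PGE2 at day 1 and at 723 to 755 and 553 to 566 CPM at day 3 (-0.10 ± 0.05 and -0.40 ± 0.05). Uhrf1, which keeps DNA methylation through replication, went from 0.08 ± 0.05 to -0.55 ± 0.05.

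Reversed responses, called on both days in opposite directions, numbered 335 (2.29%): 207 were lower with PGE2 at day 1 and higher at day 3, and 128 the other way round. Rbp2, a retinol binding protein of absorbing enterocytes, was at 137, 140 and 144 CPM in vehicle and 85.7, 83.9 and 87.1 CPM with PGE2 at day 1, and at 81.8, 89.3 and 90.6 against 164, 174 and 197 CPM at day 3. Vehicle fell and PGE2 rose (-0.69 ± 0.06 and 1.06 ± 0.06), and the response turned from -0.71 ± 0.06 to 1.04 ± 0.06 (difference adjusted p = 4.2e-14). The groups did not overlap on either day. Fabp2, the intestinal fatty acid binding protein, turned from -0.46 ± 0.06 to 1.09 ± 0.06, and Mttp, which loads lipid onto chylomicrons, from -0.43 ± 0.05 to 0.64 ± 0.05. In Mttp the vehicle change was not called (-0.03 ± 0.05). Hpgd, the dehydrogenase that inactivates PGE2, was at 15.3, 15.6 and 16.0 CPM in vehicle and 6.04, 8.48 and 8.72 CPM with PGE2 at day 1, and at 13.4, 8.35 and 13.8 against 18.8, 20.4 and 21.8 CPM at day 3 (-1.03 ± 0.16 and 0.77 ± 0.14). The drug exporter Slc47a1, the retinol binding protein Rbp7, the antimicrobial lectin Reg3g and the metallothionein Mt4 turned in this direction too, all at under 9 CPM.

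Of the 22 enteroendocrine genes tested, 8 reversed. Among them Chgb, Chga, Tac1, Tph1 and Cck were higher with PGE2 at day 1 and lower at day 3. Chgb, a granule protein of enteroendocrine cells, was at 14.96, 16.0 and 14.2 CPM in vehicle and 35.3, 32.7 and 32.9 CPM with PGE2 at day 1, and at 89.6, 78.4 and 88.6 against 20.1, 24.4 and 17.9 CPM at day 3. Vehicle rose by 2.50 ± 0.09 and PGE2 fell by 0.70 (SE 0.09), and the response turned from 1.16 ± 0.10 to -2.04 ± 0.08. Chga (0.88 ± 0.16 to -1.48 ± 0.13), a second granule protein, and Tac1 (1.12 ± 0.21 to -2.41 ± 0.17), which encodes substance P, crossed in the same way. Tph1, which makes serotonin, turned from 2.28 ± 0.26 to -1.36 ± 0.21. For Cck, the hormone cholecystokinin, the fall with PGE2 was the larger change (-2.04 ± 0.15 against 0.44 ± 0.13 in vehicle). Slc6a4, the serotonin transporter, which was outside that list, did not reverse: it was lower on both days and eased from -3.28 ± 0.14 to -1.20 ± 0.11. The Paneth cell defensin Defa30 was at 21.4 to 25.1 CPM in vehicle and 39.5 to 48.4 CPM with PGE2 at day 1 and at 92.8 to 115 and 15.8 to 18.2 CPM at day 3. Defensin genes are near-identical copies whose reads the counting may have split, so values for single members are uncertain. Pfkfb3, which sets the level of the glycolytic activator fructose 2,6-bisphosphate, turned through vehicle: it was at 12.5 to 13.1 and 22.0 to 25.99 CPM at day 1 and at 50.2 to 67.0 and 21.2 to 24.4 CPM at day 3. Its PGE2 change was not called (-0.10 ± 0.10).

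Vehicle itself changed between the days in 6047 genes (41.3%), 2963 higher (20.2%) and 3084 lower (21.1%) at day 3, and PGE2 cultures in 7022 (47.9%), 3627 higher (24.8%) and 3395 lower (23.2%). Among the 3630 genes whose response differed between days, the PGE2 change was called and the vehicle change was not in 1461 (40.2%), and the reverse held for 795 (21.9%). Both changed in 1 direction by unequal amounts in 755 (20.8%) and in opposite directions in 551 (15.2%). Neither change was called alone in 68 (1.87%). The PGE2 change was the larger of the 2 in 2425 genes (66.8%). Among the persistent genes, with no called difference, it was the larger in 53.5%. Of the 723 transient genes, 327 changed with PGE2 and were not called in vehicle and 180 were the reverse. For the 860 late genes the numbers were 370 and 198. Opposite changes were most common among the reversed genes, 114 of 335.

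**Figure D3:**
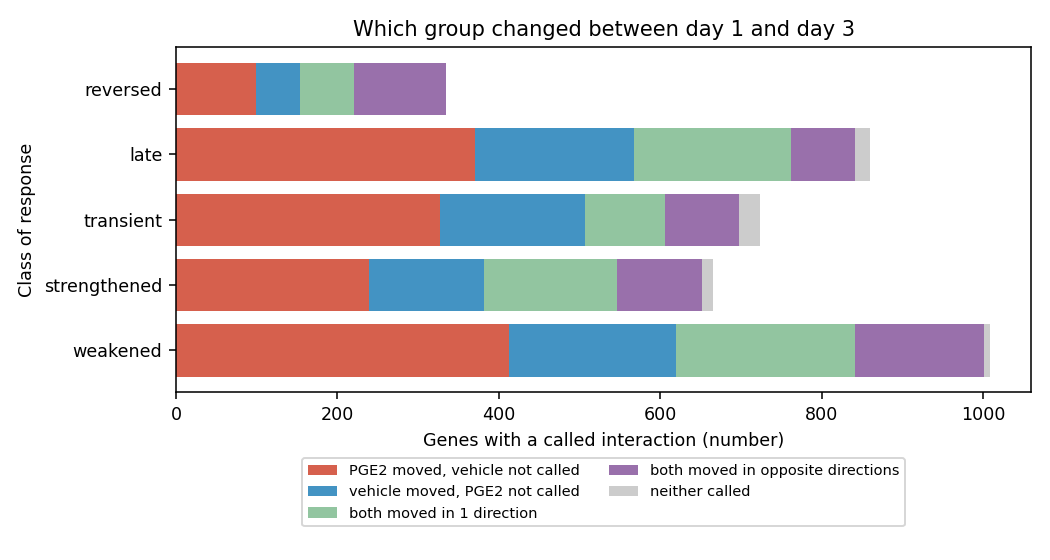
Number of genes (x axis) in each class with a called difference (y axis), divided by which group changed between day 1 and day 3. In each of the 5 classes except reversed, genes whose PGE2 change was called and whose vehicle change was not form the largest segment, and 114 of the 335 reversed genes changed in opposite directions.

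The lists of cell type and pathway genes are given by whether the median response shrank, became more positive or turned from positive to negative. Members of a list were counted by their calls, and each count is to be read against the share of all genes called in the same comparison and direction. For the difference between days that share was 13.0% higher and 11.8% lower. PGE2 against vehicle gave 27.4% higher and 29.3% lower at day 1 and 29.2% and 30.2% at day 3. The change between days gave 20.2% higher and 21.1% lower in vehicle and 24.8% and 23.2% with PGE2. Of 35 lists, 31 had a share called in either direction above the 24.8% of all genes, so a share above it was common to most lists.

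Among the lists whose response shrank, the 18 YAP and TEAD targets had a lower response at day 3 in 13 and a higher one in 0. Their median log2 response was 1.69 at day 1, with 18 of 18 higher, and 1.01 at day 3, with 15 higher. By class 11 weakened, 2 were transient and 4 persisted. The fetal-like and regenerative list (23 tested) had 15 lower and 2 higher, the latter Anxa10 and S100a6, with medians of 2.52 and 1.83 and 22 of 23 called higher with PGE2 on each day. The immediate early list (18 tested) had 11 lower and 1 higher, and its median went from 1.34 to 0.72 while PGE2 libraries fell in 15 and rose in 2. In EGF family ligands and feedback genes (21 tested) 11 were lower and 0 higher, but the list median did not shrink (0.46 and 0.48). Members called higher with PGE2 went from 14 to 12 and those called lower from 3 to 5. Basement membrane and hemidesmosome genes had 14 of 24 lower and 1 higher, with medians of 1.44 and 0.95.

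Cyclic AMP feedback and CREB targets had a called share close to that of all genes. Of 29 tested, 1 was called higher and 7 lower (27.6%), 12 persisted, and the median response was 0.53 and then 0.33. The phosphodiesterase Pde4b, at 0.143 to 0.157 CPM in vehicle and 1.07 to 1.26 CPM with PGE2 at day 1, was called on both days (2.82 ± 0.45 and 1.27 ± 0.38), and its difference of -1.56 ± 0.64 was not (adjusted p = 0.10). Crem, a gene whose products include the inducible repressor of this pathway, was not called on either day. Counts per gene do not separate its products. Of the 16 genes of prostaglandin synthesis, transport and reception, 4 were higher, 2 lower and 9 persistent. The receptor Ptger4, which encodes EP4, was among the persistent ones at 16.7 to 20.3 CPM in vehicle and 23.9 to 30.01 CPM with PGE2 at day 1 and 16.3 to 18.04 and 21.4 to 24.7 CPM at day 3.

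The median response of enterocyte genes became more positive. Of 34 tested, 28 had a more positive response at day 3 and 1 a more negative one. By class 11 strengthened, 8 reversed, 4 weakened, 4 persisted, 3 were transient and 3 late. Their median went from -0.01 at day 1, when 15 were called higher and 15 lower, to 0.88 at day 3, when 26 were higher and 5 lower. PGE2 libraries rose in 29 of the 34 between the days (median 1.07), and vehicle libraries in 15, with 9 lower (median 0.07). In the fatty acid oxidation and PPAR list 21 of 31 were higher and 1 lower, and the median turned from -0.36 to 0.18. Here 19 members were lower with PGE2 at day 1, and 8 were transient, 5 weakened and 4 reversed, against 2 strengthened and 3 late. The NRF2 and glutathione list had 17 of 25 higher and 3 lower, with 9 weakened and 5 strengthened, and it moved mostly in vehicle, where 22 of 25 fell. Goblet cell genes had 9 of 17 higher and 2 lower (medians 0.37 and 1.11), and Muc2, the main gel-forming mucin, persisted at 2.29 ± 0.22 and 2.27 ± 0.18. Gastric genes had 6 of 16 higher and 2 lower, 3 higher without any 1 of vehicle day 1 replicate 3, PGE2 day 1 replicate 1 or PGE2 day 1 replicate 2. By class 4 strengthened, 1 was late and 3 weakened, and the higher ones include Dmbt1, whose fall eased.

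The median response of the enteroendocrine and Paneth cell lists changed sign, with 8 of 22 and 7 of 23 members reversed. Of 22 enteroendocrine genes tested, 15 had a lower response at day 3 and 2 a higher one, the latter the early factors Neurog3 and Insm1. The median went from 0.54, with 9 called higher and 5 lower, to -1.54, with 0 higher and 20 lower. Vehicle libraries rose in 18 of 22 (median 1.36) and PGE2 libraries in 4, with 9 lower (median -0.44). Of 23 Paneth cell genes 15 were lower and 4 higher, and the median went from 0.57 to -1.41. Vehicle rose in 19 of these 23 and PGE2 in 10. Of the 23, 8 are defensins that share sequence. Glycolysis and hypoxia genes had 15 of 28 lower and 3 higher, with 7 reversed, and their median response also changed sign, from 0.305 to -0.445. Both groups rose between the days, vehicle in 27 of 28 (median 0.84) and PGE2 in 19 (median 0.43). The lactate transporter Slc16a3 gave the widest example, at 1.10 to 2.36 CPM in vehicle and 6.11 to 6.71 CPM with PGE2 at day 1, and at 70.3 to 99.9 and 23.7 to 44.7 CPM at day 3.

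Cell division genes fell in both groups and further with PGE2. Of 22 mitosis genes, 16 had a lower response at day 3 and 0 a higher one, 10 lower without vehicle day 1 replicate 1. Vehicle libraries fell between the days in 22 of 22 (median -0.33) and PGE2 libraries in 22 of 22 (median -0.65), and the response had a median of -0.18 at day 1 and -0.46 at day 3. In 25 DNA replication genes 15 were lower and 0 higher, with 24 and 25 falling in the 2 groups. The replication licensing factor Cdc6 turned, from 44.0 to 48.0 CPM in vehicle and 62.6 to 63.6 CPM with PGE2 at day 1 to 33.1 to 38.8 and 26.9 to 31.7 CPM at day 3.

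**Figure D4:**
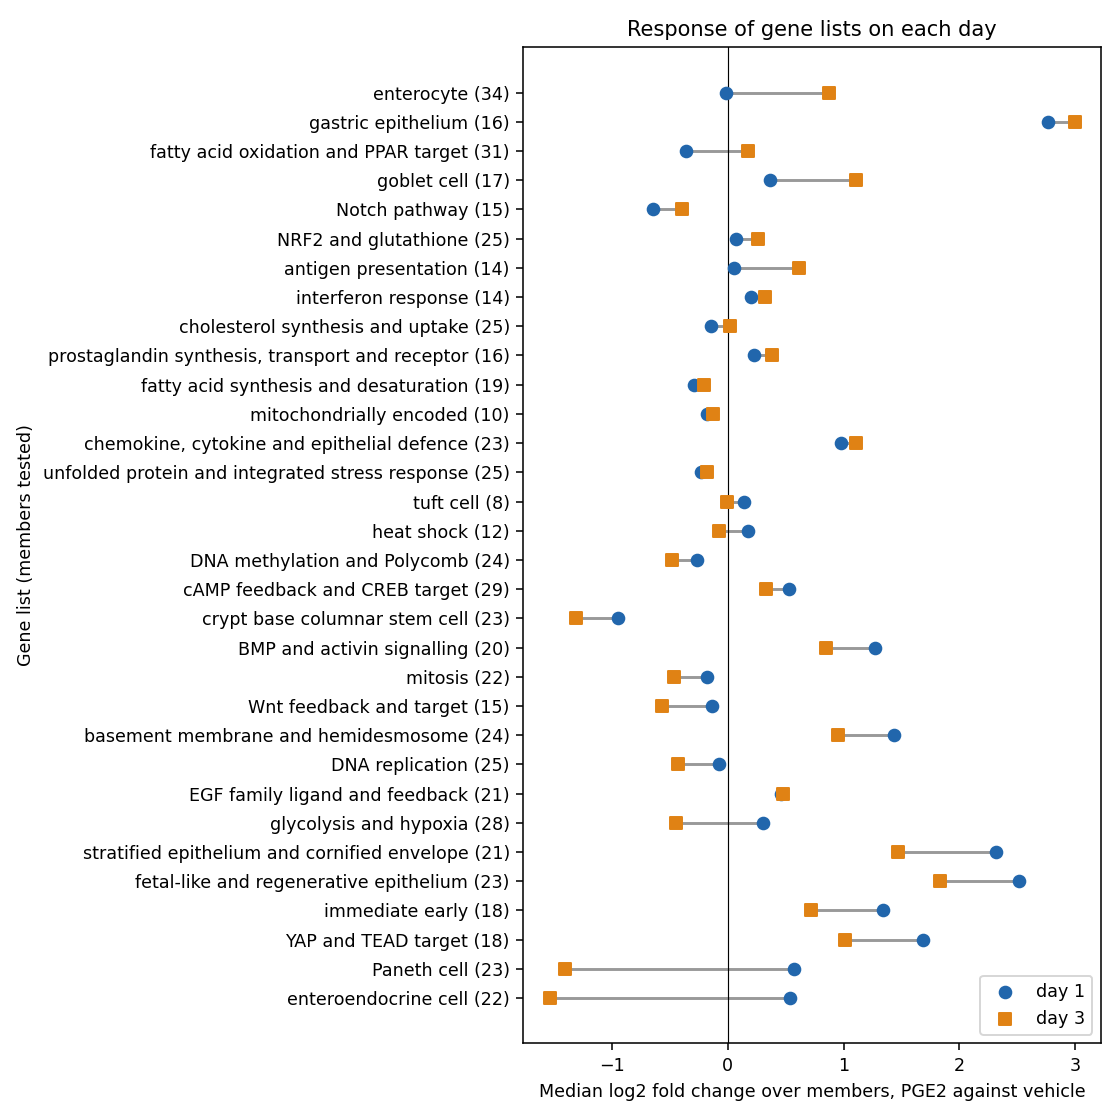
Median log2 response to PGE2 over the members of each gene list (y axis, number tested in brackets) at day 1 (circles) and day 3 (squares), for lists with at least 8 members tested. The enteroendocrine list moves from 0.54 to -1.54 and the enterocyte list from -0.01 to 0.88, and the YAP and TEAD list drops from 1.69 to 1.01 without crossing 0.

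**Figure D5:**
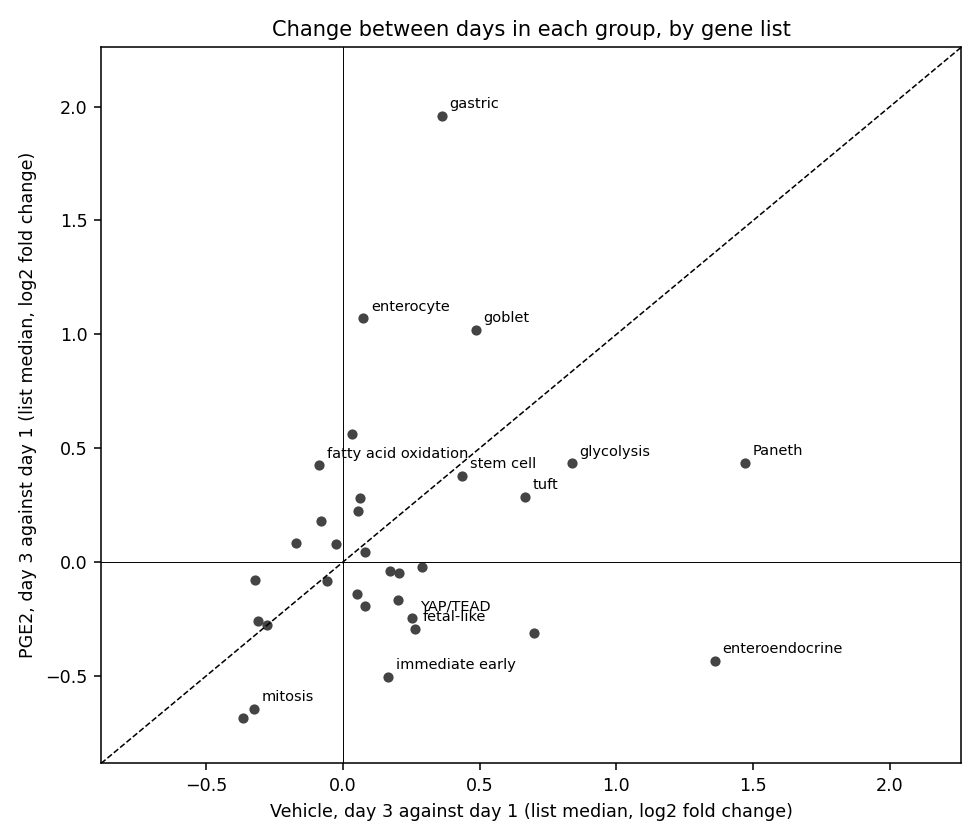
Median log2 change from day 1 to day 3 over the members of each list in vehicle (x axis) and with PGE2 (y axis), where the dashed line marks equal changes. Enteroendocrine genes lie to the right at 1.36 and -0.44, enterocyte genes above the line at 0.07 and 1.07, and mitosis genes below 0 in both groups at -0.33 and -0.65.

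The passage from day 1 to day 3 under PGE2 was also set against that under arachidonic acid (AA, 25 µM), the fatty acid from which cells make PGE2, in a fit of the 18 libraries of both days. The doses differ, and AA cultures also carry unconverted fatty acid. Of 14850 genes tested, the change between days differed in 1473 (9.92%), 703 higher (4.73%) and 770 lower (5.19%) with PGE2, and the split turned to 1331 and 314 with scaling by total counts alone. Igfbp4 fell with PGE2 and went from 10.2 to 11.4 CPM to 13.5 to 15.6 CPM with AA, a difference of -2.28 ± 0.20 (edgeR adjusted p = 2.9e-09). Slc16a3 rose by 4.77 with AA, from 5.18 to 5.39 CPM to 136 to 154 CPM, and by 2.41 with PGE2 (difference -2.36 ± 0.43). The sodium-coupled lactate transporter Slc5a12 rose with PGE2 from 2.52 to 3.13 CPM to 7.37 to 8.38 CPM and went from 3.39 to 4.60 CPM to 1.60 to 1.96 CPM with AA (difference 2.59 ± 0.27). Lrat, which stores retinol as ester, rose from 0.920 to 1.36 CPM to 2.24 to 2.88 CPM with PGE2 and went from 4.68 to 6.47 CPM to 1.89 to 3.64 CPM with AA (difference 2.11 ± 0.32).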

How the data were processed

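Libraries were made with a strand-marking NEBNext kit, per the labels' protocols. The authors deposited raw read counts for each gene. The submitters' processing notes list cutadapt, STAR, limma 3.46 and DESeq2 and give no roles. Those notes name a human build, GRCh38.p6, while the identifiers are mouse Ensembl ones, so no positions were taken from the files. How reads were counted, and with which strand setting, is not stated there, so reads of overlapping or antisense genes could not be told apart. Of 55385 identifiers, 55144 matched a name, and the other 241 held 0.00244% of the counts.

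Tests were run on these counts in edgeR 4.0.16 under R 4.3.3 (filterByExpr, TMM scaling, glmQLFit with robust spread, 1 mean per group, 4 groups of 3 libraries, 8 residual degrees of freedom). The difference of responses was the contrast of PGE2 minus vehicle at day 3 minus the same at day 1, and equals the PGE2 change between days minus the vehicle change. Standard errors come from the F statistic, and adjusted p-values from Benjamini-Hochberg over all genes tested, with a threshold of 0.05. CPM were computed from the TMM-corrected library size with no prior count, except those of the marker checks, which used total counts. Exact (Clopper-Pearson) 95% counting intervals and the floor of 3 reads cover counting error. The AA comparison was fitted on 18 libraries (12 residual degrees of freedom). The script was tested on simulated data first.

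The 35 gene lists, the classes and the rule for named genes were chosen with earlier results of these data known. Named genes were the up to 8 largest called differences in each direction, up to 4 rises and 4 falls of each class, up to 4 called members with the smallest p of each list with at least 3, a fixed panel, and up to 4 in each direction against AA, leaving out predicted genes and, for the first 2 parts, genes with a mean log2 CPM under 1. Insm1, S100a6, Anxa10, Epcam, Vil1 and the markers of other cells were named outside that rule after their values were seen. Gkn2 is given as reads because every vehicle library was at 0. Alternatives were size factors of DESeq2 1.42.0, total counts alone, no filter, a filter of 1 CPM in 6 libraries, DESeq2's test, all 18 libraries, no ribosomal-RNA-like or mitochondrial genes, a replicate block, and leaving out each library.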

Additional observations from a re-analysis of the deposited data

Results flagged for a closer look

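Each of the results here is a difference between the responses of day 1 and day 3 that passed edgeR's test of that difference; no test for an outlying library was run on single genes, since groups held 3 libraries, and the libraries that stood apart are given above. In all, 1901 genes had a more positive response at day 3 and 1729 a more negative one. Among genes whose mean log2 CPM reached 1, predicted genes left out, the largest positive log2 differences were those of Tek (3.63), Zg16 (3.48), Gkn1 (3.34), Mcpt2 (3.18), Proz (2.66), Slc47a1 (2.61), Dmbt1 (2.59) and Tff1 (2.59). The largest negative ones in the same set were those of Defa3 (-3.85), Scn3a (-3.75), Defa26 (-3.70), Tph1 (-3.64), Tac1 (-3.54), Defa30 (-3.52), Ankrd1 (-3.39) and Igfbp4 (-3.22). Below that level, Upk3b (-4.15, edgeR adjusted p = 0.0098) and Adcy1 (-3.96, adjusted p = 2.3e-06) had larger negative differences, both at under 4 CPM on average in every group.

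Rbp7 (2.51), Reg3g (2.51) and Mt4 (2.46) turned from lower to higher. Mt4 was at 5.80 to 7.09 CPM in vehicle at day 1 and at 0.940 to 1.81 CPM at day 3, while the PGE2 libraries went from 2.09 to 2.14 CPM to 2.61 to 2.65 CPM, so its turn came from vehicle. Scn3a, a sodium channel subunit of excitable cells, rose in vehicle by 3.43 ± 0.27 from 0.391 to 0.694 CPM to 5.64 to 6.04 CPM, and its change with PGE2 was not called. The defensins are near-identical copies, and the values of single members are uncertain.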

How the results depend on the processing

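The counts of more positive and more negative responses were 1783 and 1824 with DESeq2 size factors, 2254 and 1294 with total counts alone, 1878 and 1727 with a filter of 1 CPM in 6 libraries and 1459 and 1387 with DESeq2's test. Scaling by total counts alone shifted the median PGE2 change between days from 0.03 to 0.14 on the log2 scale. Leaving out 1 library gave 1454 to 1862 and 1316 to 2354. Across the same left-out libraries the classes held 602 to 788 transient, 836 to 1104 weakened, 481 to 845 strengthened, 702 to 931 late, 261 to 370 reversed and 4189 to 4389 persistent genes, 2926 to 3106 of them bounded. Similar counts did not mean the same genes. Without vehicle day 3 replicate 2, 539 of the 723 transient, 686 of the 860 late and 3818 of the 4391 persistent genes kept their class. With total counts alone 586 of the 860 late genes did, and with DESeq2's test 500 of the 723 transient genes. The PGE2 change alone was called in 1192 to 1753, the vehicle change alone in 657 to 820, both in 1 direction in 532 to 937, both in opposite directions in 446 to 558, and neither in 54 to 104 (118 with no filter). Against AA, leaving out 1 library gave 497 to 736 higher and 532 to 837 lower, and total counts alone gave 1331 and 314. The cause of these shifts was not tested.

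The replicate numbers showed no pairing of the libraries in this check. Deviations of same-numbered libraries correlated at -0.072 to 0.138 over 18 pairs, and those of different-numbered ones at -0.213 to 0.143 over 36. With 3 libraries per group the check cannot show whether libraries shared a culture or mouse. With a replicate block the counts were 1958 and 1785, and 3582 of the 3630 calls were kept. No named gene reversed in any alternative. DESeq2's test lost the calls of 8 of 178 named genes, among them Irf7, Pdgfrb and Ascl2. Without 1 library, 1 to 4 lost theirs, Psca without vehicle day 1 replicate 2 or vehicle day 3 replicate 3 and Pbp2 without vehicle day 3 replicate 2. Levels under 1 CPM rest on about 10 reads or fewer and carry a large counting error.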
